A study of Danio rerio with 6 samples.

Results

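Zebrafish thrombocytes, nucleated cells that clot blood as mammalian platelets do, were profiled by RNA sequencing in 6 libraries from larvae at 5 days after fertilization. In the 3 control libraries the larvae carried tagRFP under a fragment of the itga2b promoter. In the 3 miR-150 libraries the same promoter fragment drove miR-150 together with tagRFP. All larvae also carried EGFP under that promoter, were kept in the pigment blocker 1-phenyl 2-thiourea, and gave cells that were sorted for both colours. The labels call the libraries of a group biological replicates and do not say how many larvae each one pooled.

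The genes described were chosen by their own counts. Levels are in CPM, a gene's count scaled to the same total in every library, and values are given throughout for replicates 1, 2 and 3 in that order. A gene was kept if its lowest miR-150 library had at least 5 CPM and at least 2 times the level of its highest control. Of 32520 genes in the table, 83 met this. A second step dropped 7 of them, whose levels in miR-150 replicates 2 and 3 were at least 8 times the highest of the other 4 libraries. The dropped genes included both MIP genes and LIM2, which encode membrane proteins of lens fibre cells. This left 76 genes, of which 75 had a symbol. They were 1.03% of the 7348 genes with at least 5 CPM in every miR-150 library. The mirrored rule, for genes lower in every miR-150 library, found 36 genes.

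A microRNA binds matching sites in messenger RNAs and reduces their stability or translation, so direct targets tend to be lower where it is abundant. In mammals miR-150 acts in blood cells and MYB is its best known target. The 76 genes are higher, and most belong to the making of ribosomes and tRNAs, to metabolism, to cell-to-cell signalling or to the cell surface. Ribosomes are made in the nucleolus, where RNA polymerase I transcribes ribosomal RNA and a large set of factors cuts, modifies and folds it into subunits that are then exported. Transfer RNAs are spliced, chemically modified and charged with amino acids before they are used.

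Libraries held 12972258 to 22150519 counts, so 3 counts, taken as the floor of detection, stood for 0.135 to 0.231 CPM. This covers counting error only. The row named mir150 had 0 counts in all 6 libraries and could not check the transgene. MYB stood at 88.9, 34.7 and 63.8 CPM in controls and at 18.6, 20.4 and 5.90 CPM in miR-150 libraries, with no overlap. Its adjusted p with edgeR was 0.807, and 5.95% of all genes tested were lower without overlap. The thrombocyte marker itga2b was counted in every library, at 4002 to 5727 CPM in controls and at 5384, 4002 and 1052 CPM in miR-150 libraries. The summed level of the thrombocyte marker list was 29800 to 32960 CPM in controls and 25338, 25302 and 5740 CPM in miR-150 libraries. Lens markers summed to 221, 876 and 75.01 CPM in controls and to 1133, 79319 and 143268 CPM in miR-150 libraries. Intestine markers stood apart in miR-150 replicate 1, with 2290 CPM against 42.3 to 202 CPM in the other 5 libraries. Endothelial markers summed to 98.8, 110 and 229 CPM in controls and to 465, 135 and 244 CPM in miR-150 libraries. The thrombocyte and lens sums did not overlap between the groups. Among the 20 marker and pathway lists this was not particular to them. The blood progenitor, cell cycle, erythroid, and interferon and antigen presentation sums did not overlap either. Nor did the sums of miR-150 targets known in mammals and of signalling by the ADP receptor P2Y12. Like the thrombocyte sum, all of these were lower in miR-150 libraries. An exact two-sided permutation test gave p = 0.1 for each, the smallest p that 3 against 3 allows, so it could not pass 0.05 (0.25 after Benjamini-Hochberg adjustment over 20 marker and pathway lists). In sorted bulk samples, a change in the number of cells of a type and a change in RNA per cell cannot be told apart. Markers of other tissues were high in some controls too. Every liver marker with counts was highest in control 3, except apoa1a and apobb.1, which were highest in miR-150 replicate 1. The epidermal gene krt4 had 282, 5922 and 10221 CPM in controls against 5889, 5260 and 1018 CPM. MATN1, of the connective tissue list, had 15.8, 3582 and 13.7 CPM against 3988, 17.3 and 510 CPM. The part of these other cell types in the levels below was not tested, and their values are set beside the genes they move with.

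**Figure D1:**
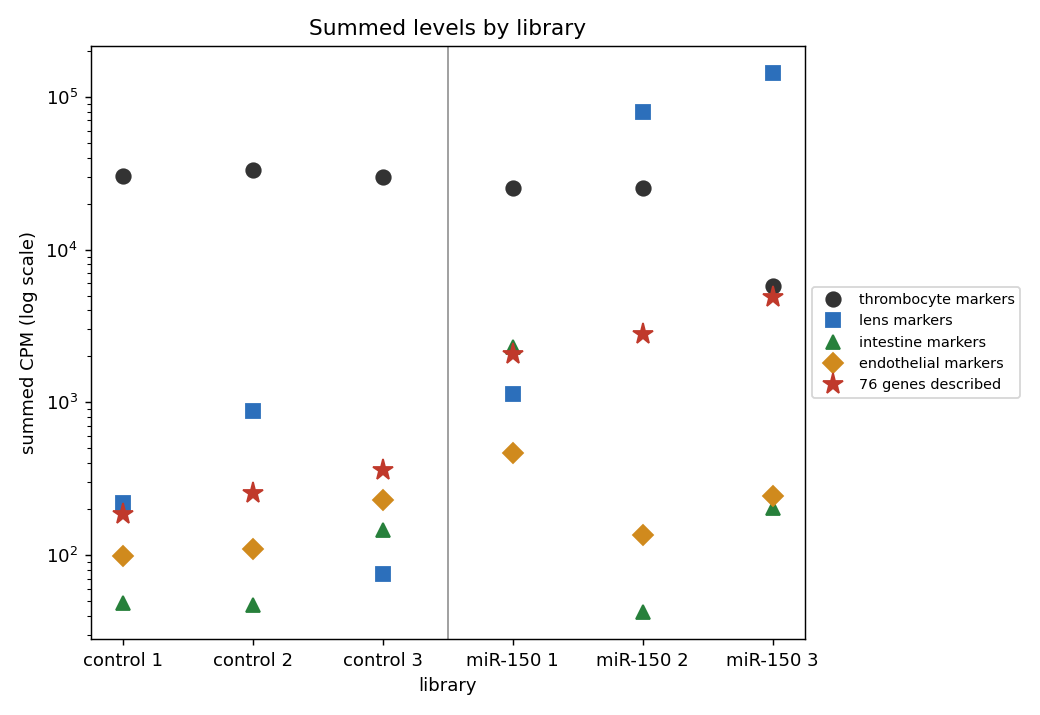
Summed CPM (log scale) of the 76 genes and of 4 marker lists in each of the 6 libraries, 1 point per library and list. The 76 genes run from 187 to 359 CPM in controls and from 2064 to 4923 CPM in miR-150 libraries, lens markers reach 79319 and 143268 CPM in miR-150 replicates 2 and 3, and intestine markers reach 2290 CPM in miR-150 replicate 1.

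Together the 76 genes took 187, 255 and 359 CPM of the control libraries and 2064, 2821 and 4923 CPM of the miR-150 libraries. Without fabp4a, the most abundant of them, the miR-150 sums were 1943, 1943 and 3232 CPM. They were low genes in controls: the median of the highest control level was 3.82 CPM. No control count at all was found for 21 of the 76 genes in control 1, 24 in control 2 and 8 in control 3. Among miR-150 libraries the lowest level had a median of 12.3 CPM and reached 121 CPM for fabp4a. It lay under 10 CPM for 30 genes.

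The gap between the groups, the lowest miR-150 level over the highest control level, had a median of 2.58 among the genes with any control count. It was under 3 for 50 genes and at least 5 for 13. Just inside the 2-fold limit lay ABTB2 (2.05), tmem254 (2.05), PHGDH (2.07), amer1 (2.11) and trmt10c (2.12). Just outside lay RIOX2 (1.997), elp6 (1.96), riox1 (1.95), CTH (1.949) and cryba1l2 (1.94). The limit thus falls within a run of genes and does not mark a break in the values.

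**Figure D2:**
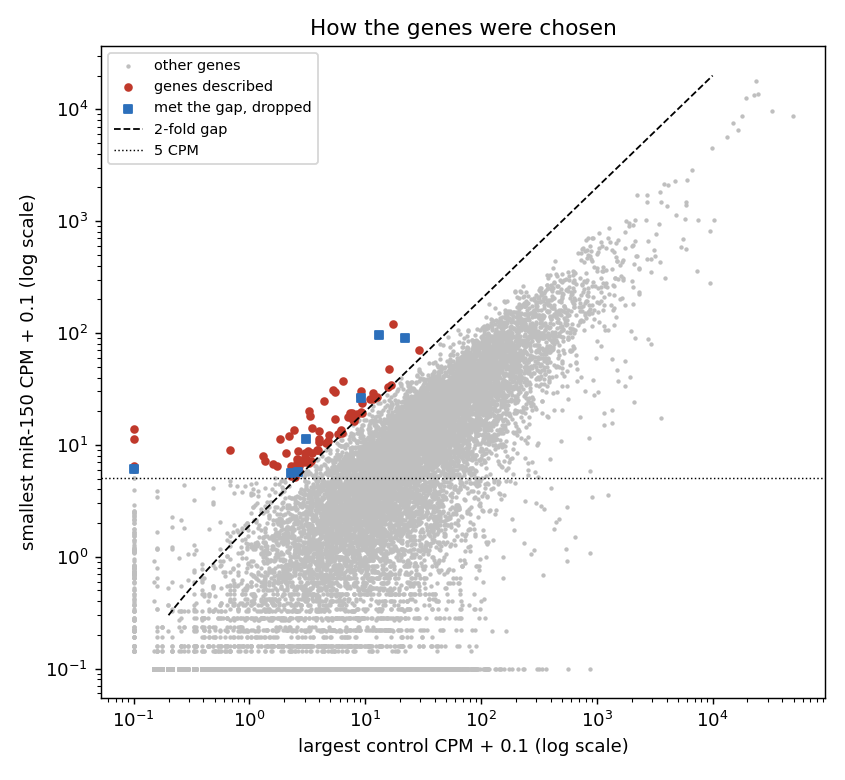
Lowest miR-150 level against highest control level of each gene (CPM + 0.1, log scales), with the 2-fold gap dashed and the 5 CPM limit dotted. The 76 genes (red) lie just above the dashed line in most cases, with 50 under a 3-fold gap, and the 7 dropped genes (blue) lie among them.

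In the edgeR quasi-likelihood fit over 15722 genes, the 76 genes had a median log2 fold change of 3.57 (range 1.62 to 12.08), beside 0.044 for all genes tested. The values from 11.33 up belong to the 4 genes with 0 counts in all 3 controls, where the fold change has no measured base. The highest of the others was 7.39, for col23a1a. Because the rule used these same libraries, these fold changes are a description and not a test. None of the 76 had an adjusted p below 0.05 with edgeR, where the background was 0% of all genes, and their smallest adjusted p was 0.758. At an unadjusted p below 0.05, 65 of the 76 were higher, beside 4.61% of all genes tested. DESeq2 gave 36 of the 76 an adjusted p below 0.05, beside 1.57% higher at that level among the genes to which it gave an adjusted p. The groups did not overlap for any of the 76, which the rule requires. Over all genes tested 7.64% were higher without overlap and 5.95% were lower without overlap, on totals scaled by TMM (a trimmed mean of log ratios between libraries). On plain totals 5.71% were higher without overlap. A positive log2 fold change was found for 51.8% of genes tested.

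The miR-150 libraries did not share 1 level. The highest of the 3 over the lowest had a median of 2.31. This ratio was lowest for TSPAN7, at 1.104, and was at least 8 for 9 genes. The highest library was miR-150 replicate 3 for 54 genes, replicate 1 for 12 and replicate 2 for 10. Replicate 1 was the lowest of the 3 for 43 genes, and 38 genes rose from replicate 1 through 2 to 3. Among all genes tested, replicate 3 was the highest of the miR-150 libraries for 29.1% and replicate 1 for 53.0%. Of these 9, MRC1 had a ratio of 27.02 and was highest in replicate 1, whereas fabp4a, pitx3, capn1a, SH3GLB2, foxd2, NMD3 and PALM were highest in replicate 3.

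**Figure D3:**
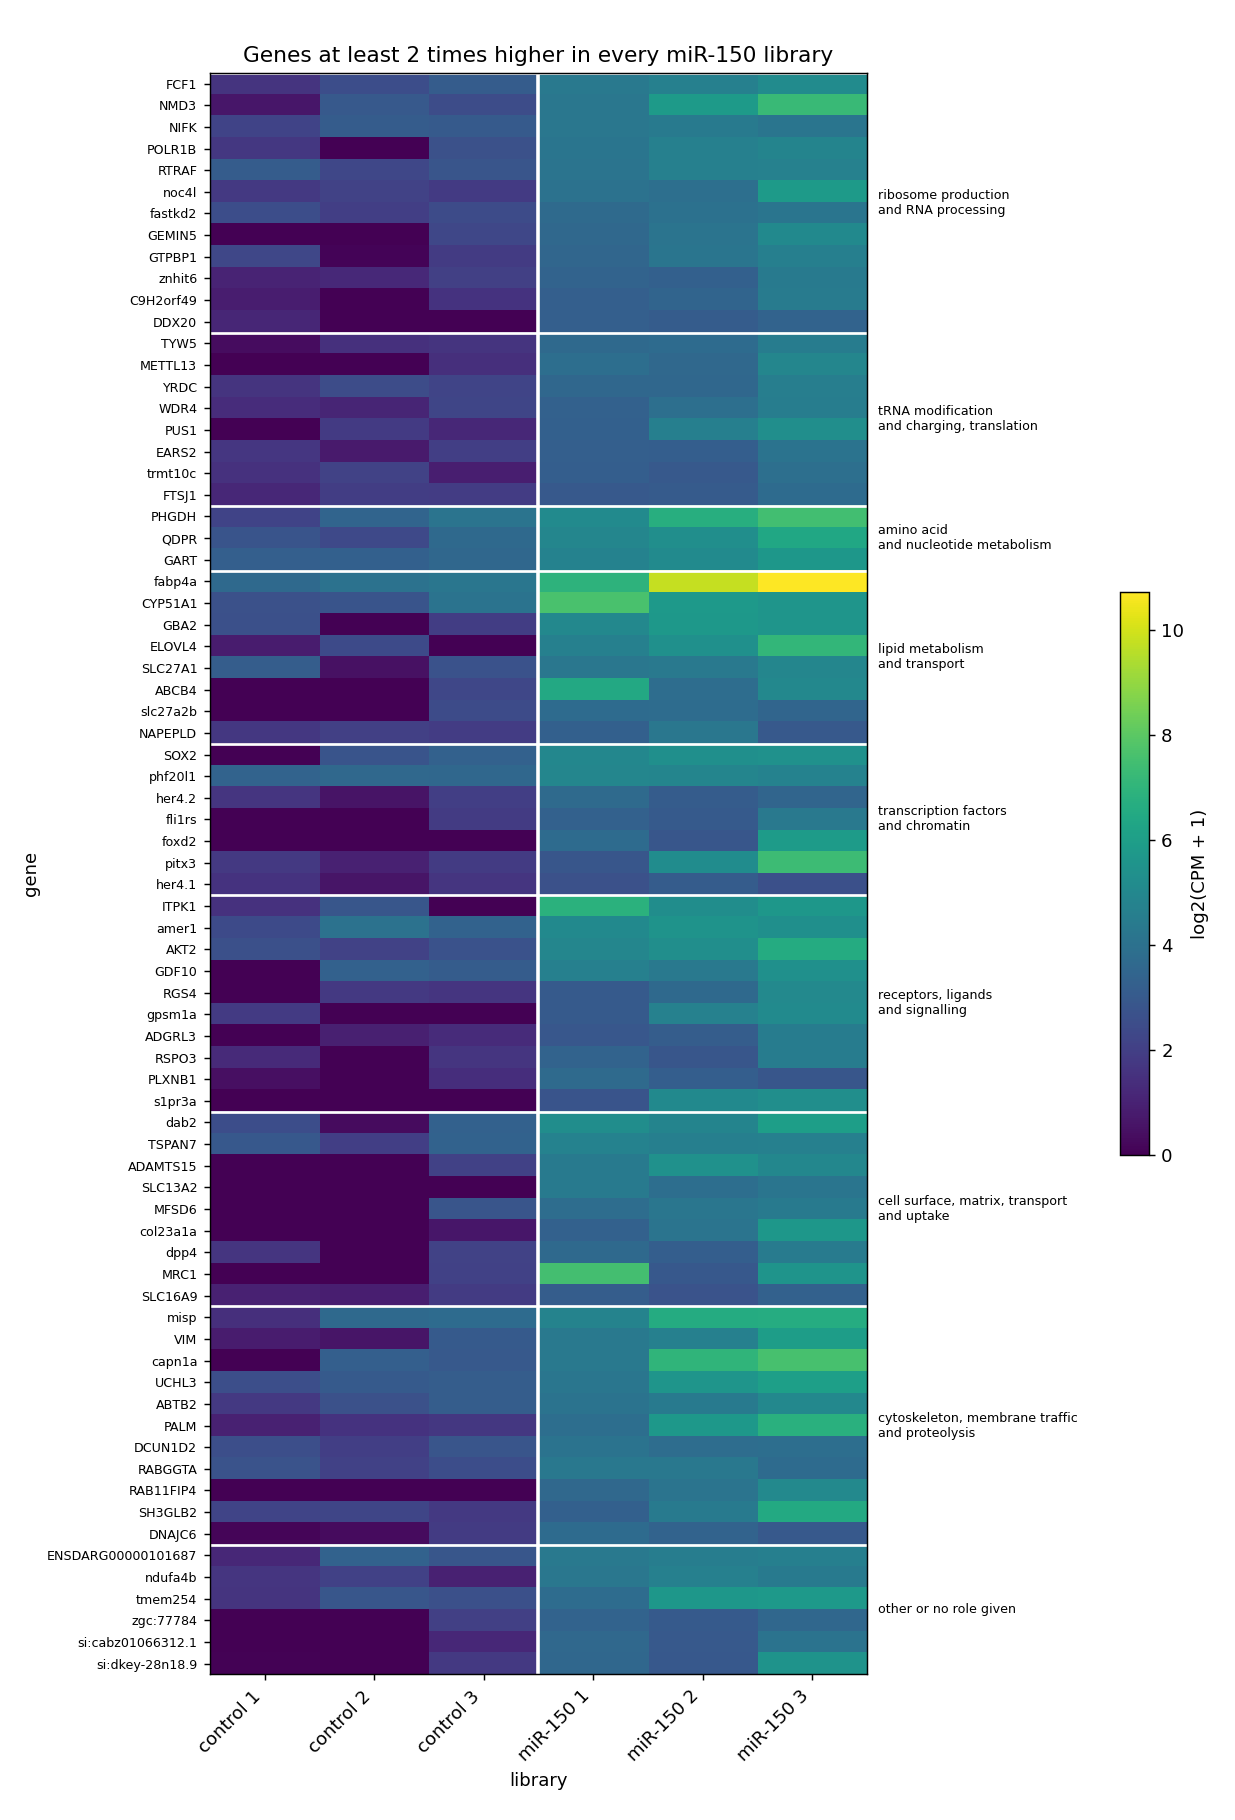
Levels of 74 of the 76 genes in the 6 libraries as log2(CPM + 1), 1 row per gene, grouped by role. The control columns stay at or below the 17.3 CPM of fabp4a, and every miR-150 value drawn is at least the 5.18 CPM of her4.1. Replicate 3 is the brightest column for 54 of them, and fabp4a is the brightest row with up to 1691 CPM.

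Genes for making ribosomes and processing RNA formed the largest role group, with 12 genes, of which 11 were highest in miR-150 replicate 3. NMD3, the adaptor that exports the large ribosomal subunit from the nucleus, stood at 0.584, 6.94 and 4.56 CPM in controls and at 17.8, 56.5 and 153 CPM in miR-150 libraries. FCF1, a component of the complex that processes the small subunit's RNA, ran at 2.09, 4.78 and 7.62 CPM against 19.2, 24.2 and 35.0 CPM. Both were lowest in replicate 1 and highest in replicate 3 of the miR-150 group. noc4l, another small-subunit assembly factor, had 2.48, 3.39 and 2.54 CPM in controls and 15.5, 13.9 and 55.8 CPM in miR-150 libraries. POLR1B, the second largest subunit of RNA polymerase I, had 2.33, 0 and 5.37 CPM against 16.9, 24.5 and 27.7 CPM. NIFK, a nucleolar protein of pre-ribosomal RNA processing, was nearly level within the miR-150 group, at 17.8, 20.2 and 17.1 CPM, above 3.40, 7.79 and 7.27 CPM in controls. znhit6, which helps to assemble the small nucleolar particles that guide RNA modification, had 1.07, 1.39 and 3.12 CPM in controls and 9.74, 8.67 and 19.7 CPM in miR-150 libraries. The level of fastkd2, a mitochondrial RNA-binding protein needed for the mitochondrial ribosome, was 4.72, 2.93 and 4.5 CPM against 12.2, 14.9 and 16.7 CPM.

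A pair of members belong to the SMN complex, which loads Sm proteins onto spliceosomal small nuclear RNAs. GEMIN5, its RNA-reading subunit, had counts in 1 control, at 0, 0 and 3.92 CPM, and stood at 11.2, 16.4 and 32.7 CPM in miR-150 libraries. DDX20, its helicase, was at 1.22, 0 and 0 CPM in controls and at 8.36, 7.81 and 9.63 CPM in miR-150 libraries. RTRAF and C9H2orf49, subunits of the tRNA ligase complex that joins spliced tRNAs in mammals, are also members. RTRAF stood at 7.78, 3.93 and 6.12 CPM against 16.7, 24.5 and 25.4 CPM, and C9H2orf49 at 0.827, 0 and 1.96 CPM against 8.41, 10.1 and 20.9 CPM. GTPBP1, a GTPase related to translation factors, had 3.89, 0.0771 and 2.65 CPM against 10.5, 16.8 and 24.0 CPM. A second gene with that symbol was far more abundant, at 93.4 to 188 CPM in controls and 77.5 to 197 CPM in miR-150 libraries, and its groups overlapped.

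The 8 genes of tRNA modification and charging and of translation were all highest in miR-150 replicate 3. PUS1, which turns uridine into pseudouridine in tRNAs, stood at 0, 2.54 and 1.27 CPM in controls and at 8.70, 23.4 and 38.1 CPM in miR-150 libraries. WDR4, the partner of METTL1 in making 7-methylguanosine, had 1.56, 1.16 and 3.75 CPM against 8.99, 14 and 22.6 CPM. TYW5, a hydroxylase of the wybutosine pathway for phenylalanine tRNA, had 0.292, 1.77 and 2.08 CPM against 11.9, 12.4 and 21.8 CPM. These enzymes act on different tRNA positions, and each was below 4 CPM in every control. YRDC, which starts the threonylcarbamoyl modification next to the anticodon, had 2.04, 4.63 and 3.64 CPM against 10.8, 10.8 and 23.05 CPM. FTSJ1, a ribose methyltransferase of the anticodon loop, had 1.31, 2.85 and 2.77 CPM against 6.97, 7.49 and 12.3 CPM. trmt10c, a mitochondrial tRNA methyltransferase and RNase P subunit, had 1.85, 3.31 and 0.866 CPM against 8.24, 7.04 and 14.3 CPM. In all 3 the first and second miR-150 libraries lay close together and the third lay above them. EARS2, the mitochondrial glutamyl-tRNA synthetase, had 2.24, 0.694 and 2.94 CPM against 8.59, 8.31 and 16.01 CPM. METTL13, which methylates the elongation factor that brings tRNAs to the ribosome, had counts in control 3 only, at 1.73 CPM, and stood at 13.6, 11.3 and 29.5 CPM in miR-150 libraries.

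The other genes of these pathways were counted through lists written after the 76 genes were known and containing them, so the counts below leave the members out and are descriptions. For all list counts without overlap, the shares over all genes tested were 7.64% higher and 5.95% lower on TMM-scaled totals. On plain totals 5.71% were higher. Of 114 other ribosome production genes tested, 109 had a positive log2 fold change, with a median of 1.72, beside 51.8% and 0.044 over all genes tested. Without overlap, 36 were higher and 0 lower on TMM-scaled totals, and 31 were higher on plain totals. None had an adjusted p below 0.05 with edgeR, where the background was 0% of all genes. POLR1A, the largest subunit of RNA polymerase I, stood at 5.20, 0.617 and 16.7 CPM in controls and at 22.5, 56.5 and 56.6 CPM in miR-150 libraries. NOC2L, of large-subunit assembly, had 4.72, 14.3 and 13.7 CPM against 24.3, 85.6 and 101 CPM, and WDR3, of the small-subunit processome, had 7.44, 10.9 and 23.6 CPM against 31.7, 62.9 and 117 CPM. The abundant nucleolar protein ncl differed less, at 282, 344 and 393 CPM against 333, 432 and 497 CPM, and its groups overlapped. The summed level of the list was 1588, 2917 and 2909 CPM in controls and 2905, 4475 and 8272 CPM in miR-150 libraries, so that miR-150 replicate 1 lay within the controls. Without miR-150 replicate 3, the library with the fewest thrombocyte marker counts, the median of the 114 genes was 1.00.

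Of 61 other genes for tRNA modification and splicing, 56 had a positive log2 fold change, with a median of 1.44, and 16 were higher and 0 lower without overlap on TMM-scaled totals (12 higher on plain totals). METTL1, the catalytic partner of WDR4, stood at 2.43, 5.78 and 5.65 CPM in controls and at 7.78, 27.3 and 47.8 CPM in miR-150 libraries. The ligase RTCB and the helicase DDX1 belong with RTRAF and C9H2orf49 in the tRNA ligase complex. RTCB had 15.6, 22.1 and 15.18 CPM against 24.5, 42.5 and 79.0 CPM, and DDX1 had 10.4, 11.3 and 9.64 CPM against 31.6, 36.9 and 20.6 CPM. FAM98B, of the same complex, had 5.01, 2.85 and 8.89 CPM against 6.22, 16.6 and 14.3 CPM, and overlapped, unlike RTCB and DDX1. Without miR-150 replicate 3 the median of the 61 genes was 0.91. All 6 other SMN complex genes tested had a positive log2 fold change, with a median of 1.5 that was 0.42 without miR-150 replicate 3.

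**Figure D4:**
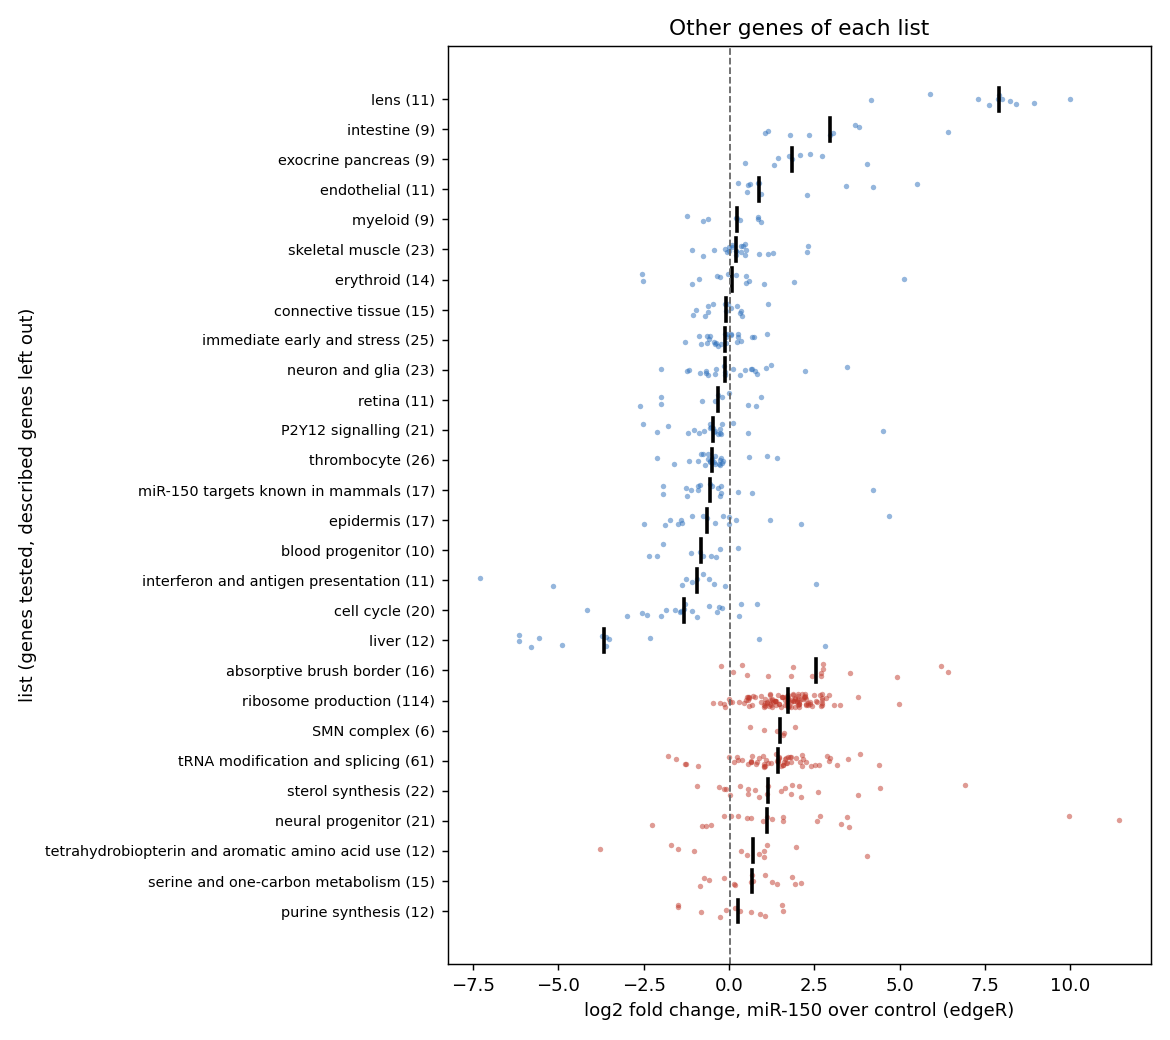
Log2 fold changes (miR-150 over control, edgeR) of the genes in each list with at least 5 tested genes besides the 76, 1 point per gene, with the median as a bar and the median of all genes tested (0.044) dashed. Blue lists are the marker and pathway lists, and red lists were written after the 76 genes were known. Ribosome production lies almost wholly right of the dashed line with a median of 1.72, lens has the highest median at 7.92, and cell cycle has a median of -1.31.

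Amino acid and nucleotide metabolism held 4 members. QDPR, which regenerates tetrahydrobiopterin, the cofactor of the aromatic amino acid hydroxylases, had 5.98, 4.16 and 11.7 CPM against 29.2, 37.8 and 81.7 CPM. It was lowest in miR-150 replicate 1. PCBD1, the other enzyme of cofactor recycling and no member, had 0.243, 2.93 and 2.08 CPM against 4.61, 18.6 and 40.7 CPM and did not overlap either. Of the enzymes that make the cofactor, SPR was lower, at 45.4, 26.9 and 26.2 CPM against 25.2, 17.4 and 2.83 CPM. GCH1 had 16.9, 14.3 and 23.8 CPM against 40.1, 31.3 and 0.602 CPM. It was thus above every control in miR-150 replicates 1 and 2 and below them in replicate 3. Over the 12 other genes of this list tested, 8 had a positive log2 fold change, 2 were higher and 2 lower without overlap, and the median was 0.70. It was 0.23 without miR-150 replicate 1 and 0.39 without miR-150 replicate 3.

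PHGDH, the first enzyme of serine synthesis, had 3.50, 10.1 and 16.4 CPM in controls and 34.1, 103 and 177 CPM in miR-150 libraries. The next enzymes of the pathway are PSAT1, at 3.02, 24.0 and 12.6 CPM against 17.1, 35.3 and 76.4 CPM, and PSPH, at 19.7, 24.1 and 15.7 CPM against 35.3, 65.4 and 74.6 CPM. PSPH did not overlap between the groups, while miR-150 replicate 1 lay below control 2 for PSAT1. Over the 15 other genes of serine and one-carbon metabolism, 11 were positive with a median of 0.69, and 3 were higher and 0 lower without overlap. Without miR-150 replicate 3 the median was 0.33. GART, which carries out several steps of purine synthesis, was steady at 8.41, 8.87 and 11.0 CPM in controls and stood at 25.8, 33.7 and 49.9 CPM in miR-150 libraries. Of 12 other purine synthesis genes, 7 were positive with a median of 0.26, which was 0.15 without miR-150 replicate 3. The downstream enzyme ADSL did not overlap, at 23.6, 16.96 and 25.1 CPM against 31.3, 59.9 and 66.7 CPM, while IMPDH2 had 341, 183 and 178 CPM against 78.5, 209 and 59.3 CPM.

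Lipid metabolism and transport held 8 members. fabp4a, a fatty acid binding protein, was the most abundant of all 76, at 11.6, 15.3 and 17.3 CPM in controls and at 121, 877 and 1691 CPM in miR-150 libraries. ELOVL4, which elongates very long chain fatty acids, had 0.778, 4.32 and 0 CPM against 24.4, 41.1 and 136 CPM. A second ELOVL4 gene overlapped, at 8.80, 24.2 and 6.52 CPM against 15.7, 12.6 and 7.58 CPM. The members fabp4a and ELOVL4 were both highest in replicates 2 and 3, the libraries with the high lens marker sums. The same rise from replicate 1 through 2 to 3 was found for 38 of the 76 members. CYP51A1, the lanosterol demethylase of sterol synthesis, had the opposite order, with 5.35, 5.86 and 15.98 CPM in controls and 198, 52.5 and 47.4 CPM in miR-150 libraries. Of the other 22 sterol synthesis genes tested 18 were positive, with a median of 1.13, and 4 were higher and 0 lower without overlap. Without miR-150 replicate 1 the median was 0.052. MSMO1, a later enzyme of the pathway, had 2.14, 19.2 and 14.9 CPM in controls against 142, 6.28 and 0 CPM, and HMGCS1 had 21.6, 43.3 and 13.6 CPM against 87.7, 31.2 and 34.7 CPM.

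GBA2, a glucosylceramidase outside the lysosome, was more even across miR-150 libraries, at 31.1, 51.2 and 47.1 CPM, above 5.16, 0 and 2.83 CPM in controls. ABCB4, which moves phosphatidylcholine into bile in mammals, had 0, 0 and 3.87 CPM against 87.6, 13.3 and 31.2 CPM, highest in the library with the most intestine markers. The fatty acid transport proteins SLC27A1 and slc27a2b were both members. SLC27A1 stood at 7.98, 0.385 and 5.42 CPM against 18.3, 19.3 and 29.4 CPM. A second SLC27A1 gene had 0, 15.11 and 36.9 CPM in controls against 6.05, 0.858 and 0 CPM. slc27a2b was seen in control 3 only, at 4.5 CPM, and stood at 12.5, 13.0 and 10.3 CPM in miR-150 libraries. NAPEPLD, which releases N-acylethanolamines from membranes, had 2.38, 3.08 and 2.71 CPM against 8.76, 17.9 and 6.86 CPM.

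Among 7 genes for transcription and chromatin, SOX2 and her4.1 and her4.2 are best known from neural progenitors, where the her4 genes are targets of Notch. SOX2 stood at 0, 5.94 and 9.12 CPM in controls and at 30.0, 40.0 and 41.9 CPM in miR-150 libraries. her4.2 had 2.19, 0.463 and 2.94 CPM against 12.04, 7.63 and 10.4 CPM, and her4.1 had 1.95, 0.540 and 2.19 CPM against 5.36, 7.58 and 5.18 CPM. The highest miR-150 library over the lowest was 1.40 for SOX2, 1.58 for her4.2 and 1.47 for her4.1. Which cells these 3 genes came from was not tested. her4.1 and her4.2 are near-identical tandem copies that can share reads, so they may not be independent. Their copies her4.3, her4.4 and her4.5 were also low, at up to 7.21 CPM in controls and 1.38 to 6.14 CPM in miR-150 libraries. SOX3, a close relative of SOX2, had 0, 11.1 and 23.02 CPM against 30.2, 74.9 and 179 CPM. One SOX1 gene, which in mammals serves neural progenitors and lens fibres, had 0, 0.385 and 0 CPM against 3.98, 61.1 and 196 CPM, following the lens markers. Of 21 other neural progenitor genes 16 were positive with a median of 1.11 (0.80 without miR-150 replicate 1 or 3), and 8 were higher and 0 lower without overlap. In the same list GFAP, an astroglial filament protein, was high in miR-150 replicate 1, at 2.48, 1.00 and 3.87 CPM against 63.5, 2.84 and 13.1 CPM. ascl1a had 0.340, 27.98 and 18.8 CPM against 8.30, 1.04 and 0 CPM. VIM, an intermediate filament protein of many progenitor and mesenchymal cells and of lens, had 0.778, 0.540 and 7.21 CPM against 19.3, 24.3 and 61.2 CPM.

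pitx3, a transcription factor of lens and dopaminergic neurons, stood at 2.43, 1.00 and 2.60 CPM in controls and at 6.34, 36.3 and 163 CPM in miR-150 libraries, in the order of the lens markers. foxd2, a forkhead factor, had 0 counts in all 3 controls and 218, 142 and 958 counts in miR-150 libraries. Against a floor of 3 counts in each control library its mean CPM was at least 139-fold higher. fli1rs, named as a relative of the ETS factor fli1, had 0, 0 and 2.60 CPM against 8.99, 7.18 and 19.2 CPM. phf20l1, a reader of methylated lysines, was the steadiest regulator, at 9.73, 11.5 and 10.9 CPM in controls and 29.2, 28.8 and 25.6 CPM in miR-150 libraries, a 2.61-fold difference of the means.

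Ligands, receptors and signalling proteins made up 10 members. The ligands were RSPO3, a secreted enhancer of Wnt signalling, and GDF10, of the TGF-beta family. RSPO3 had 1.41, 0 and 2.19 CPM against 9.51, 6.37 and 21.5 CPM, and GDF10 had 0, 9.02 and 7.73 CPM against 24.4, 19.4 and 40.3 CPM. Among receptors, s1pr3a, a receptor for sphingosine 1-phosphate, had 0 counts in all 3 controls and 104, 736 and 632 counts in miR-150 libraries, so its mean was at least 140-fold higher than the floor. PLXNB1, a semaphorin receptor, had 0.340, 0 and 1.62 CPM against 11.9, 8.17 and 6.32 CPM, while the other gene with that symbol had 0, 86.0 and 5.94 CPM in controls against 18.4, 1.08 and 0.241 CPM. ADGRL3, an adhesion receptor of the latrophilin family, had 0, 0.925 and 1.5 CPM against 6.63, 7.86 and 21.4 CPM.

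Inside the cell, AKT2, a kinase below phosphoinositide 3-kinase, stood at 5.20, 3.39 and 5.42 CPM in controls and at 29.6, 38.6 and 95.7 CPM in miR-150 libraries. It was the sole member found in the 20 marker and pathway lists. It was found in the list for signalling by P2Y12, the ADP receptor that the study's title names. That list names the symbol akt2, which AKT2 matches only when case is ignored. The gene spelled akt2, as the list has it, was more abundant in controls and ran lower, at 60.6, 77.2 and 94.2 CPM against 44.5, 56.5 and 42.5 CPM. The gene P2RY12 had 0 counts in all 6 libraries. Of the 21 other P2Y12 signalling genes tested 3 had a positive log2 fold change, with a median of -0.45, and 1 was higher and 4 were lower without overlap. Over all genes tested 7.64% were higher and 5.95% lower without overlap. Without miR-150 replicate 3 the median of the 21 genes was -0.22. RGS4, which switches off G proteins, had 0, 2.47 and 2.13 CPM against 7.32, 11.7 and 32.0 CPM, and gpsm1a, which binds inhibitory G protein subunits, had 2.53, 0 and 0 CPM against 7.26, 25.3 and 33.6 CPM. ITPK1, an inositol phosphate kinase, had 1.90, 6.32 and 0 CPM against 114, 37.5 and 49.8 CPM, and the second ITPK1 gene overlapped at 9.87 to 31.9 CPM against 5.73 to 23.3 CPM. amer1, a membrane partner of APC in Wnt signalling, had 4.33, 15.5 and 9.46 CPM against 32.6, 44.6 and 39.5 CPM.

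Cell surface, matrix, transport and uptake held 10 members, several known from absorptive epithelia. SLC13A2, a citrate and dicarboxylate transporter of the brush border in mammals, had 0 counts in all 3 controls and an even 344, 303 and 280 counts in miR-150 libraries, at least 91.5-fold above the floor. dpp4, a brush border peptidase, had 2.14, 0 and 3.35 CPM against 11.7, 8.31 and 21.2 CPM. The endocytic adaptor dab2 had 4.86, 0.231 and 8.94 CPM against 37.6, 27.5 and 64.2 CPM, while the second gene, DAB2, overlapped at 6.52, 29.3 and 39.2 CPM against 35.4, 19.8 and 33.2 CPM. The intestine marker VIL1, villin, stood at 3.70, 8.48 and 3.23 CPM in controls and at 1331, 4.60 and 36.6 CPM in miR-150 libraries. Like VIL1, the brush border genes SLC5A1 and pdzk1 were highest in miR-150 replicate 1. Others, ENPEP, mep1a.2, lrp2b, CUBN and ctsbb, were lowest of the miR-150 libraries in replicate 1 and highest in replicate 3. ENPEP had 0, 0 and 3.17 CPM against 1.21, 4.06 and 62.9 CPM. Of 16 other brush border genes tested 15 were positive, with a median of 2.56. It was 2.27 without miR-150 replicate 1 and 1.22 without miR-150 replicate 3. Only 1 of the 16 was higher without overlap, beside 7.64% of all genes tested.

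MRC1, the mannose receptor of macrophages and scavenging endothelium, had 0, 0 and 3.17 CPM against 183, 6.77 and 45.4 CPM. The scavenger endothelial genes stab1 and stab2 had a like order across miR-150 libraries, with at most 8.60 CPM in any control. stab1 stood at 132, 1.67 and 20.9 CPM and stab2 at 57.8, 0 and 22.7 CPM. Of the other endothelial markers, lyve1b, clec14a and ecscr had this order too. Within the miR-150 group kdrl, cdh5, TIE1 and EGFL7 were highest in replicate 3, while tek and flt1 fell from replicate 1 through 2 to 3. Over all libraries kdrl, cdh5, TIE1 and clec14a were highest in control 3, at 38.8, 15.5, 46.7 and 14.02 CPM. The matrix genes were col23a1a, a transmembrane collagen, and ADAMTS15, a secreted protease. col23a1a had the largest measured gap of all members, 15.6, at 0, 0 and 0.577 CPM against 8.99, 16.5 and 49.7 CPM. ADAMTS15 had 0, 0 and 3.17 CPM against 19.8, 41.7 and 30.3 CPM. TSPAN7, a tetraspanin, was the most even member, at 6.76, 3.01 and 9.23 CPM against 26.2, 23.7 and 24.7 CPM. The transporters MFSD6 and SLC16A9 stood at 13.2, 17.5 and 19.9 CPM and at 8.07, 5.69 and 9.15 CPM in miR-150 libraries, above at most 6.06 and 2.60 CPM in controls. The second MFSD6 gene was more abundant in controls and overlapped, at 34.8 to 73.3 CPM against 16.2 to 38.3 CPM.

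The last named group held 11 genes for the cytoskeleton, membrane traffic and proteolysis. capn1a, a calcium-activated protease, had 0, 8.40 and 6.98 CPM in controls and 18.96, 128 and 196 CPM in miR-150 libraries. PALM, a lipid-anchored membrane protein, had 0.973, 2.00 and 2.31 CPM against 13.5, 51.4 and 111 CPM, and misp, an actin-binding spindle protein, had 1.70, 11.7 and 12.6 CPM against 26.9, 96.5 and 99.2 CPM. UCHL3, a ubiquitin hydrolase, had 4.96, 7.32 and 8.08 CPM against 17.5, 46.6 and 65.4 CPM. These 4 genes were lower in miR-150 replicate 1 than in the other 2, as the lens markers were. The membrane traffic genes were less alike. RAB11FIP4, an effector of recycling Rab proteins, had 0 counts in all 3 controls and 196, 368 and 529 counts in miR-150 libraries, at least 109-fold above the floor. RABGGTA, which attaches lipids to Rab proteins, had 5.74, 3.16 and 4.85 CPM against 18.5, 18.8 and 12.3 CPM, lowest in replicate 3. DNAJC6, the clathrin-uncoating cofactor auxilin, had 0.0973, 0.231 and 2.60 CPM against 12.4, 9.80 and 6.98 CPM, also lowest in replicate 3. SH3GLB2, an endophilin, had 3.65, 3.78 and 2.42 CPM against 8.87, 19.9 and 91.1 CPM. ABTB2, an ankyrin repeat protein, had 2.43, 5.32 and 7.85 CPM against 16.1, 19.95 and 30.9 CPM, and DCUN1D2, which promotes the attachment of NEDD8 to cullins, had 4.96, 3.01 and 6.06 CPM against 15.9, 13.4 and 13.7 CPM.

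The remaining 6 genes were placed in no role group. The most even of them was the gene without a symbol, ENSDARG00000101687, at 1.31, 9.33 and 6.29 CPM in controls and 19.2, 22.03 and 23.7 CPM in miR-150 libraries. ndufa4b, of the respiratory chain by its name, had 2.19, 3.24 and 0.981 CPM against 18.1, 24.5 and 20.5 CPM. tmem254 had 2.04, 6.24 and 5.14 CPM against 12.8, 50.8 and 53.8 CPM. The other 3, zgc:77784, si:cabz01066312.1 and si:dkey-28n18.9, had 0 counts in control 2 and at most 3.06 CPM in control 3.

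In all, 19 of the 76 genes share a symbol with at least 1 other gene of the annotation. Several of those other genes overlapped between the groups, as given above for GTPBP1, ITPK1, MFSD6, DAB2 and ELOVL4. So did a second PALM gene, at 9.19, 20.7 and 16.3 CPM against 10.1, 13.5 and 25.6 CPM. A second DCUN1D2 gene had 9.34, 12.7 and 33.2 CPM against 22.8, 19.2 and 42.3 CPM. A second QDPR gene had 1.22, 3.85 and 6.40 CPM against 2.82, 3.02 and 10.2 CPM. In these cases the difference belongs to 1 gene of each set as the reads were counted. Counting could also have split reads between near-identical copies. Apart from AKT2, matched only with case ignored, no member was found in any of the 20 marker and pathway lists. Thus 19 of these lists held none. For the lens list the choice of genes had a part in this, since both MIP genes are in it and were dropped. The 20 cell cycle genes tested had a median log2 fold change of -1.31, with 0 higher and 10 lower without overlap, beside 7.64% and 5.95% of all genes tested.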

How the data were processed

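Sorted thrombocytes gave 6 libraries (3 control, 3 miR-150). The authors deposited a table of raw counts per Ensembl gene, not normalized. The submitters' processing notes name STAR 2.7.10b, HTSeq 0.11.3, edgeR 1.34.1 and the build GRCz11. The use of strand, the annotation release and the handling of duplicates are not given in the sources used here. Per the labels' protocols, cDNA was amplified with a SMARTer ultra-low input kit and libraries were made with Nextera XT, so amplification can widen the spread of low genes.

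CPM was the count over the column total. Symbols came from a table that pairs 29201 of the 32520 identifiers with a symbol. Symbols differing only in case or in a trailing a or b were matched to lists, and every identifier with a symbol was taken. Genes were tested in R 4.3.3 with edgeR 4.0.16 (filterByExpr, 15722 genes; TMM; quasi-likelihood F test; genotype as the only term; Benjamini-Hochberg adjustment over all genes tested; called below 0.05). DESeq2 1.42.0 was an alternative. Alternatives chosen after seeing the data were plain totals without TMM, totals without lens markers, more than 3 counts in every control, and all alternatives to the list medians, as were the fits without the filter and with DESeq2 for the members' median. The scripts were tested on simulated data. The standard error of a fold change is the one that gives the F statistic. Counts without overlap used TMM-scaled CPM unless plain totals are named. Replicates of a group differed by far more than sampling noise (chi-square per degree of freedom 106 to 609), and p-values measure the spread between these libraries only.

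The members and lists were chosen with earlier results of these data known. The rule used the genotype contrast in all 6 libraries, so the members' fold changes are descriptions. The role groups and the 9 pathway lists that hold members were written after the members and their values were seen. Genes were named by level, by gap, by presence in a list and by nearness to the limit, and the rest to complete each role group after their values were seen, as were the other list genes given as examples. Of the 76 members, 2 are counted but not otherwise reported here.

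A comparison of gene positions was void, because 52 of the 76 members (68.4%) could be placed in the RefSeq gene table, whose assembly differs from that of the files. The planned promoter motif counts were not run, since no sequences were at hand, and no sequence or coordinate is given. Replicate numbers were not used to pair the libraries in the main fit, and the sample titles do not say whether they do. Same-numbered libraries correlated at -0.19, -0.10 and -0.038 in their deviations from the group means, which cannot exclude a pairing.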

Additional observations from a re-analysis of the deposited data

How the results depend on the processing

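The count of genes called between the genotypes was 0 with edgeR, with DESeq2 size factors, on plain totals, with no filter, with the replicate number as a block (0 calls with the replicate block) and with each library left out. The number at an unadjusted p below 0.05 was 855, and 552 with the replicate block, though no library correlated best with its own number. The DESeq2 Wald test called 257 genes, 232 of them higher, and 36 members. The cause was not tested. In 836 fits of single members under 11 alternatives no sign reversed, which the choice of genes without overlap fixes and which is no sign of stability. Their median log2 fold change was 3.18 to 4.09.

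The number of genes the rule keeps depends on its limits: 26 with a 3-fold gap, 153 with a 1.5-fold gap, 181 with 1 CPM as the least miR-150 level, 46 with 10 CPM, and 40 where every control had more than 3 counts. TMM-scaled totals kept 103 genes (70 of the 76) and totals without lens markers 86. With 1 library left out the number ran from 96 (without control 1) to 376 (without miR-150 replicate 1, 60 of the 76, since the drop of genes high in replicates 2 and 3 then reaches further). It was 158 and 216 without controls 2 and 3, 246 without miR-150 replicate 2 and 111 without miR-150 replicate 3.

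Plain totals put the median of all genes at -0.15 instead of 0.044, and the ribosome production median at 1.36. Low control levels limit precision: 32 of the 76 had 0 counts in at least 1 control. The position comparison was void at every setting, so its values are not reported, and the promoter motifs were not run.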
